A study of Mus musculus with 12 samples.

Results

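The epidermal growth factor (EGF) family of ligands and their ERBB receptors were followed here in mouse kidney. The 10 genes, chosen by symbol from the 43346 listed genes, are the 7 ligands Egf, Areg, Ereg, Hbegf, Tgfa, Btc and Epgn and the 3 receptors Egfr, Erbb2 and Erbb3. Whole-kidney mRNA was sequenced in 6 mouse libraries labelled HP-AKI (replicates 7, 8, 9, 11, 12 and 13) and 6 labelled sham (replicates 1 to 6), all at day 1. AKI is acute kidney injury, and in this field HP-AKI stands for injury induced by heme proteins, a reading that the labels leave unstated. The labels give no strain, sex, age, dose or way of inducing the injury, and they do not say what the sham treatment held. They also do not say that the libraries came from separate animals, so p-values reflect library-to-library variation that may be technical in origin.

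EGF family ligands are made as membrane-anchored precursors and bind receptors after a protease of the ADAM family releases their extracellular domain. Egf, Areg and Tgfa bind EGFR alone, whereas Hbegf, Btc and Ereg bind ERBB4 as well, and Epgn binds EGFR with low affinity. ERBB2 has no known soluble ligand and acts as the preferred partner of the other receptors, and ERBB3 binds neuregulins and signals through its partners because its own kinase is weak. In the healthy kidney Egf is made by the thick ascending limb and the distal convoluted tubule, and its protein reaches the urine. Hbegf, Areg and Tgfa are known from the injured kidney tubule as ligands that act on EGFR.

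Summed over genes, counts came to between 31624522 and 40630917 per HP-AKI library and between 35201197 and 41951129 per sham library. Values are given as counts-per-million (CPM), scaled with the trimmed mean of M-values (TMM), and a gene was called changed at a Benjamini-Hochberg adjusted p below 0.05 in edgeR's quasi-likelihood test over 17470 tested genes. Of these 72.8% were called, 37.7% as higher and 35.2% as lower in HP-AKI, so a call by itself sets no gene apart in these data. The first principal component separated the groups, and HP-AKI 8, sham 1 and sham 2 stood at 1 end of the second, which held 7.85% of the variance. Over all genes in the test the median log2 fold change was 0.04, and 0.16 when libraries were scaled by their totals alone.

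Of the 10 genes, 9 passed the filter on low counts and 7 were called, which over so few genes is close to the background of 72.8%. Areg, Ereg, Hbegf, Tgfa and Egfr were higher in HP-AKI, and Egf and Btc were lower. Erbb2 and Erbb3 did not pass the threshold, and Epgn had too few counts to be tested. The HP-AKI and sham libraries did not overlap for 5 of the 9 tested genes, against 52.4% of all tested genes. In this count 4 lay higher in HP-AKI and 1 lay lower, where the shares of all tested genes were 26.7% and 25.8%. What stood out was the size of some changes: 49 of the 17470 tested genes (0.28%) fell as much as Egf, and 701 (4.01%) rose as much as Hbegf.

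**Figure D1:**
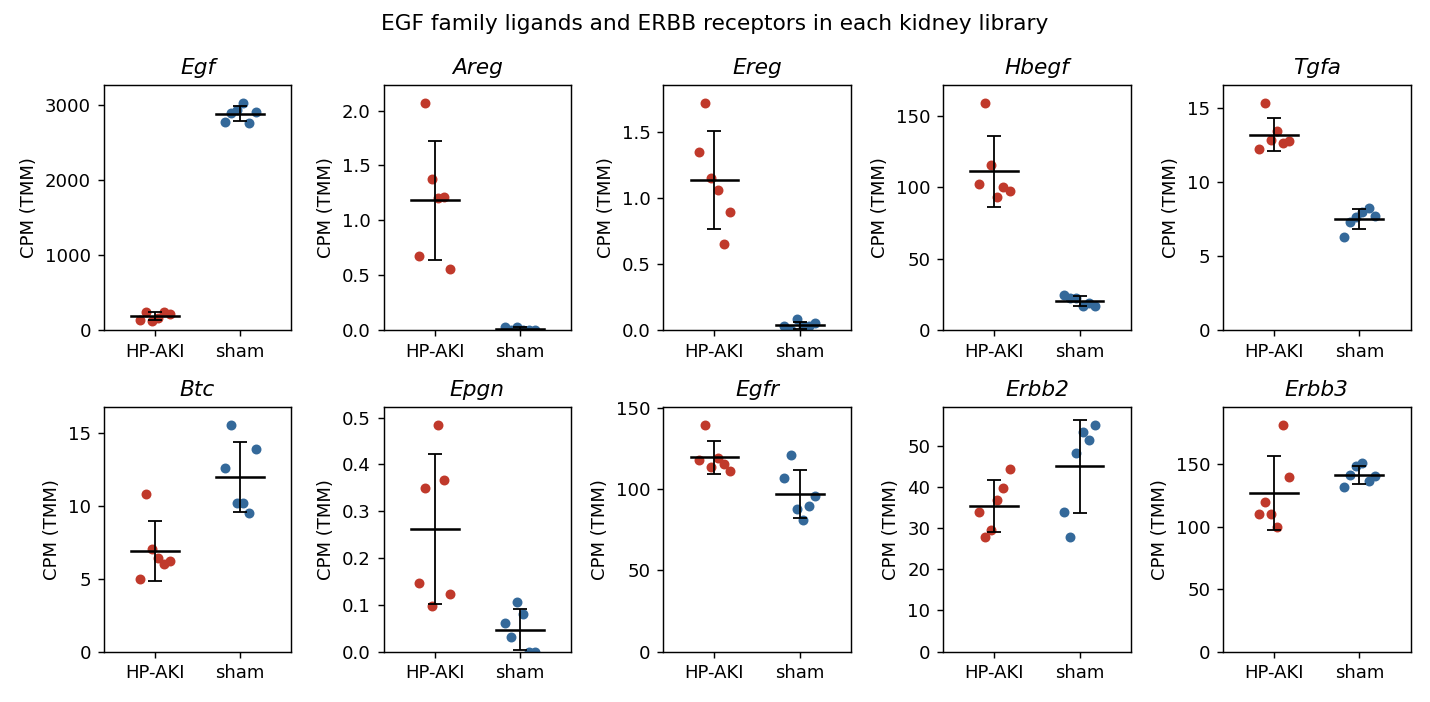
Each panel plots the TMM-scaled CPM of 1 gene in the 6 HP-AKI and the 6 sham libraries on its own linear axis from 0, with points for libraries, a line for the mean and a bar for the SD. Egf fell to 184 CPM in HP-AKI, against 2877 CPM in sham, Areg, Ereg, Hbegf and Tgfa lay above every sham library, and the groups overlapped for Btc, Epgn, Egfr, Erbb2 and Erbb3.

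The upstream sequences of Areg and Egf are shown because these genes gave the largest rise and the largest fall of the family. Each is the run of 250 bases just before the RefSeq start on GRCm38.p6, written 5′ to 3′ on the gene's own strand. The Areg window lies at chr5:91139349-91139598 on the plus strand and the Egf window at chr3:129755323-129755572 on the minus strand. Capitals mark a cyclic AMP response element and a TATA box in the Areg window.
Areg: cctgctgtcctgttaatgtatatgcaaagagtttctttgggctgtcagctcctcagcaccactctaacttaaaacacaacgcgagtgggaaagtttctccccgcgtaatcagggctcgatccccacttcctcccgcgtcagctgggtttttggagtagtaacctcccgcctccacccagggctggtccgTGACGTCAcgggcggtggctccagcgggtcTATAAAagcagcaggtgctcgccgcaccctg
Egf: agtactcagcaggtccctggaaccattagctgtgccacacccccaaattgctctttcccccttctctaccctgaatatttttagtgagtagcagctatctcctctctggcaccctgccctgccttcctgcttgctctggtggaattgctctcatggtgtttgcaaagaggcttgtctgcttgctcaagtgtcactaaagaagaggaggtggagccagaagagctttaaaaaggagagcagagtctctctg

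In the Areg window the element TGACGTCA stood 61 to 54 bases before the start and TATAAA 31 to 26 bases before it. A GC box, GGGCGG, left in lower case, stood 52 to 47 bases before the start. Both strands were searched, matches of different motifs did not overlap here, and the same search found TGACGTCA in 1.55%, TATAAA in 12.4% and GGGCGG in 32.7% of 32851 RefSeq windows of 250 bases. The search also took in the AP-1 motif TGANTCA, present in 6.75% of windows, the antioxidant response element core TGACNNNGC, in 10.2%, and the CArG box, in 1.47%. None of the 6 motifs stood in the Egf window. Windows were at hand for 7 of the 10 genes, 8 windows in all, and not for Ereg, Hbegf and Erbb3. Beyond Areg, the Epgn window held TATAAA 86 to 81 bases before its start, the Tgfa window held GGGCGG at 126 to 121 and at 15 to 10 bases, and the Egfr window held it at 9 to 4 bases. A match is a stretch of letters, and nothing in these data measured binding to it.

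Egf (ENSMUSG00000028017), the precursor of epidermal growth factor, lies on chromosome 3 from 129677575 to 129755322 on the minus strand of GRCm38, the build of all gene positions here. It ranged from 118 to 239 CPM with a median of 189 CPM in HP-AKI, against 2761 to 3020 CPM with a median of 2896 CPM in sham. The highest HP-AKI library thus stayed far under the lowest sham library. Egf averaged 184 ± 54.9 CPM in HP-AKI and 2877 ± 99.1 CPM in sham (SD, n = 6 each), a log2 fold change of -3.97 ± 0.182 (SE, edgeR adjusted p = 5.72e-11), with sham 15.7-fold above HP-AKI. By CPM it ranked 988 among tested genes in HP-AKI and 17 in sham, and it took 0.0191% of all counts in HP-AKI and 0.276% in sham. The HP-AKI libraries also varied more among themselves, with a coefficient of variation of 29.9% in HP-AKI and 3.44% in sham.

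Within HP-AKI the Egf level was uneven. HP-AKI 9 and 7 were lowest at 118 and 128 CPM, HP-AKI 11 had 162 CPM, and HP-AKI 13, 8 and 12 had 216, 239 and 239 CPM. In whole tissue, fewer cells of the type that makes a transcript and less of it per cell cannot be told apart. Egf overlaps the small RNA gene Gm24515 on its own strand, which had 13 counts in HP-AKI and 754 in sham, and 3 annotated antisense genes that were not analysed here. The library kit does not mark strand and how strand was treated in counting is not given in the sources used here, so reads of antisense partners cannot be told apart from those of Egf.

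Hbegf (ENSMUSG00000024486), the heparin-binding ligand that also serves as the diphtheria toxin receptor in human cells, lies on chromosome 18 from 36504929 to 36515805. It ranged from 93.1 to 159 CPM with a median of 101 CPM in HP-AKI, against 16.9 to 24.8 CPM with a median of 20.5 CPM in sham. Every HP-AKI library lay above every sham library, and HP-AKI 8 was the highest while the other HP-AKI libraries held at most 115 CPM. Hbegf averaged 111 ± 24.6 CPM in HP-AKI and 20.4 ± 3.33 CPM in sham (SD, n = 6 each), a log2 fold change of 2.45 ± 0.145 (SE, edgeR adjusted p = 8.44e-10), or 5.46-fold higher. Without HP-AKI 8 the log2 fold change was 2.30. With 24426 counts in HP-AKI and 4419 in sham, Hbegf was the most deeply counted of the ligands that rose.

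Areg (ENSMUSG00000029378) encodes amphiregulin, a low-affinity EGFR ligand, and lies on chromosome 5 from 91139615 to 91148432 by the deposited coordinates. Its counts were 71 in HP-AKI 8, 56 in HP-AKI 9, 52 in HP-AKI 11, 43 in HP-AKI 12, 23 in HP-AKI 7 and 18 in HP-AKI 13, against 1 in sham 1, 1 in sham 3 and 0 in the other 4 sham libraries. It was thus present in 6 of 6 HP-AKI libraries and in 2 of 6 sham libraries. In CPM it ranged from 0.553 to 2.07 with a median of 1.21 in HP-AKI, against 0 to 0.0304 with a median of 0 in sham. The fitted log2 fold change was 6.56 ± 0.578 (SE, edgeR adjusted p = 7.12e-08). Because the sham side rests on 2 counts against 263 in HP-AKI, the ratio of the summed counts per depth carries a 95% counting interval of 35.7 to 1083 around 130.4, which covers counting error only. The sham libraries without an Areg count, sham 2, 4, 5 and 6, could hold it at up to 0.0732 to 0.091 CPM, the level of 3 counts in 1 library.

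Ereg (ENSMUSG00000029377) encodes epiregulin, a ligand of EGFR and ERBB4, and lies beside Areg on chromosome 5 from 91074617 to 91093649. It ranged from 0.650 to 1.72 CPM with a median of 1.11 CPM in HP-AKI, against 0 to 0.0796 CPM with a median of 0.0287 CPM in sham. The groups did not overlap, and HP-AKI 8 was again the highest library and HP-AKI 12 the lowest of its group. Ereg averaged 1.14 ± 0.370 CPM in HP-AKI and 0.0355 ± 0.0267 CPM in sham (SD, n = 6 each), a log2 fold change of 4.84 ± 0.393 (SE, edgeR adjusted p = 2.9e-08). It rests on 250 counts in HP-AKI and 8 in sham, a ratio of 31.0 whose 95% counting interval runs from 15.5 to 72.6. Ereg overlaps the antisense gene Gm19610 by 152 bases, and reads of the pair cannot be told apart. Areg and Ereg did not keep a fixed ratio within HP-AKI: per kilobase of the listed gene length, Ereg stood at 0.155 of Areg in HP-AKI 12 and at 0.580 of Areg in HP-AKI 7.

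Epgn (ENSMUSG00000035020) encodes epigen, a low-affinity EGFR ligand, and lies on chromosome 5 from 91027464 to 91035215. It had 59 counts in HP-AKI and 10 in sham, under the filter on low counts. It ranged from 0.0981 to 0.484 CPM with a median of 0.248 CPM in HP-AKI, against 0 to 0.106 CPM with a median of 0.0456 CPM in sham. The groups overlapped, since sham 3 lay above HP-AKI 9. The mean difference was 0.215 CPM (exact two-sided permutation test over 924 splits, p = 0.00433, where the smallest possible p is 0.00216), and the ratio of summed counts was 5.85, its 95% counting interval running from 2.97 to 12.8. Without a filter on low counts edgeR gave a log2 fold change of 2.40 ± 0.625 (SE, adjusted p = 0.00312).

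Tgfa (ENSMUSG00000029999) encodes transforming growth factor alpha, a high-affinity EGFR ligand, and lies on chromosome 6 from 86195251 to 86275639. It ranged from 12.2 to 15.3 CPM with a median of 12.8 CPM in HP-AKI, against 6.30 to 8.24 CPM with a median of 7.65 CPM in sham. The groups did not overlap and the spread within each was narrow, at a coefficient of variation of 8.43% in HP-AKI and 8.97% in sham. Tgfa averaged 13.2 ± 1.12 CPM in HP-AKI and 7.52 ± 0.674 CPM in sham (SD, n = 6 each), a log2 fold change of 0.81 ± 0.0956 (SE, edgeR adjusted p = 1.78e-06), or 1.76-fold higher. Tgfa overlaps Gm43917 on the opposite strand by 2360 bases, with the same limit.

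Btc (ENSMUSG00000082361) encodes betacellulin, a ligand of EGFR and ERBB4, and lies on chromosome 5 from 91357261 to 91402994 on the minus strand. It ranged from 4.97 to 10.8 CPM with a median of 6.30 CPM in HP-AKI, against 9.497 to 15.6 CPM with a median of 11.4 CPM in sham. It was the 1 ligand besides Egf that fell, and the groups overlapped only through HP-AKI 8, whose 10.8 CPM lay above sham 3, 4 and 5. Btc averaged 6.91 ± 2.04 CPM in HP-AKI and 11.98 ± 2.42 CPM in sham (SD, n = 6 each), a log2 fold change of -0.80 ± 0.180 (SE, edgeR adjusted p = 0.00101).

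Epgn, Ereg, Areg and Btc lie within 375531 bases of chromosome 5, with 39401 bases between Epgn and Ereg, 45965 between Ereg and Areg, and 208828 between Areg and Btc. The 1 other gene listed between Epgn and Btc was the small nuclear RNA gene Gm23092. These neighbours did not move alike: Areg and Ereg rose by 6.56 and 4.84 on the log2 scale, and Btc, on the opposite strand, fell by 0.80. Epgn had 4 to 21 counts per HP-AKI library and 0 to 4 per sham library, with the higher mean in HP-AKI given above. Mthfd2l, the mitochondrial folate enzyme gene next to Epgn, had a log2 fold change of 0.49 (edgeR adjusted p = 0.00451), and Parm1, the gene after Btc, had -0.50 (adjusted p = 0.00113).

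**Figure D2:**
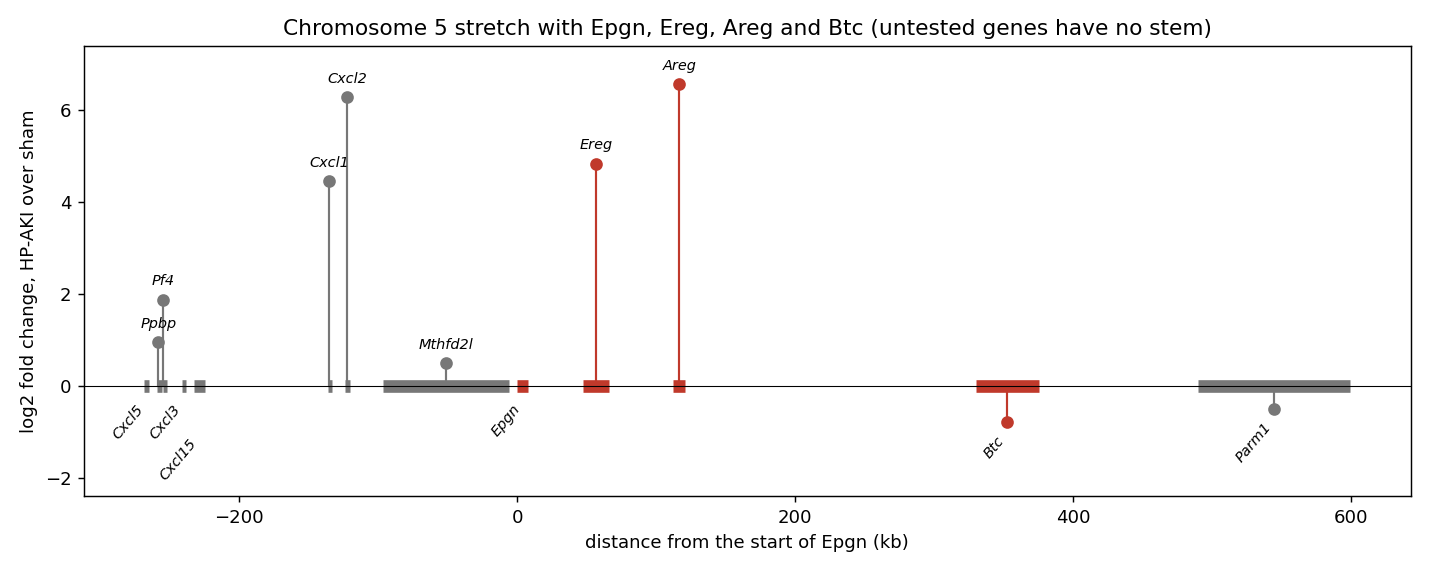
Stems give the log2 fold change of HP-AKI over sham for tested genes along chromosome 5, by distance from the start of Epgn in kilobases; bars on the zero line are gene extents, red for EGF family ligands and grey for other protein-coding genes. Areg at 6.56 and Ereg at 4.84 stand high, Btc lies at -0.80, Epgn was not tested, and Cxcl1 at 4.45 and Cxcl2 at 6.29 stand high on the other side of Mthfd2l.

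To compare levels between genes, CPM were divided by the gene length the authors list, in kilobases. In HP-AKI the order of these levels was Hbegf 46.9 ± 10.4, Egf 38.6 ± 11.5, Btc 2.40 ± 0.709, Tgfa 1.53 ± 0.129, Areg 0.984 ± 0.454, Ereg 0.275 ± 0.0894 and Epgn 0.149 ± 0.0909 CPM per kilobase (SD, n = 6). In sham it was Egf 605 ± 20.8, Hbegf 8.59 ± 1.4, Btc 4.17 ± 0.842, Tgfa 0.872 ± 0.0782, Epgn 0.0264 ± 0.0248, Ereg 0.00857 ± 0.00645 and Areg 0.00792 ± 0.0123 CPM per kilobase (SD, n = 6). The first 2 places of HP-AKI overlap, with Hbegf above Egf in 4 of 6 libraries, and the last 2 overlap as well, with Ereg above Epgn in 4 of 6. The lead of Hbegf depends on the listed lengths. In CPM without division by length, Egf lay above Hbegf in every HP-AKI library. The ranges of Btc and Tgfa overlapped, as did those of Tgfa and Areg, although Btc exceeded Tgfa and Tgfa exceeded Areg in 6 of 6 libraries. In sham the first 4 places were apart in every library, and the ranges of Epgn, Ereg and Areg overlapped at or near 0.

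The make-up of the 7 ligands differed between the groups. Egf formed 42.1 ± 7.83% of the summed CPM per kilobase in HP-AKI and 97.8 ± 0.293% in sham (SD, n = 6 each), with 31.4 to 51.6% in HP-AKI and 97.4 to 98.2% in sham. Hbegf formed 52.0 ± 7.23% in HP-AKI and 1.39 ± 0.246% in sham. Btc, Tgfa and Areg formed 2.63, 1.72 and 1.07% in HP-AKI, against 0.674, 0.141 and 0.0013% in sham, so that Btc held a larger share in HP-AKI although its own level fell. These shares are descriptions without a test, and they depend on the listed gene lengths: by CPM without division by length, Egf formed 57.1% in HP-AKI and 98.6% in sham.

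The summed ligand level was lower in HP-AKI, and the sum without Egf was higher. The 7 ligands together summed to 90.9 ± 18.9 CPM per kilobase in HP-AKI and 618.5 ± 20.3 in sham (SD, n = 6 each). The 6 ligands other than Egf summed to 52.2 ± 11.6 CPM per kilobase in HP-AKI and 13.7 ± 1.77 in sham, with 44.5 to 75.0 in HP-AKI and 11.7 to 15.8 in sham. The ratio of Egf to Hbegf per kilobase was 0.509 in HP-AKI 9, 0.626 in HP-AKI 7, 0.748 in HP-AKI 8, 0.868 in HP-AKI 11, 1.11 in HP-AKI 13 and 1.19 in HP-AKI 12, against 55.6 in sham 1 up to 88.8 in sham 4. Sums of ligand transcripts say nothing of the protein released or of how strongly each ligand binds.

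**Figure D3:**
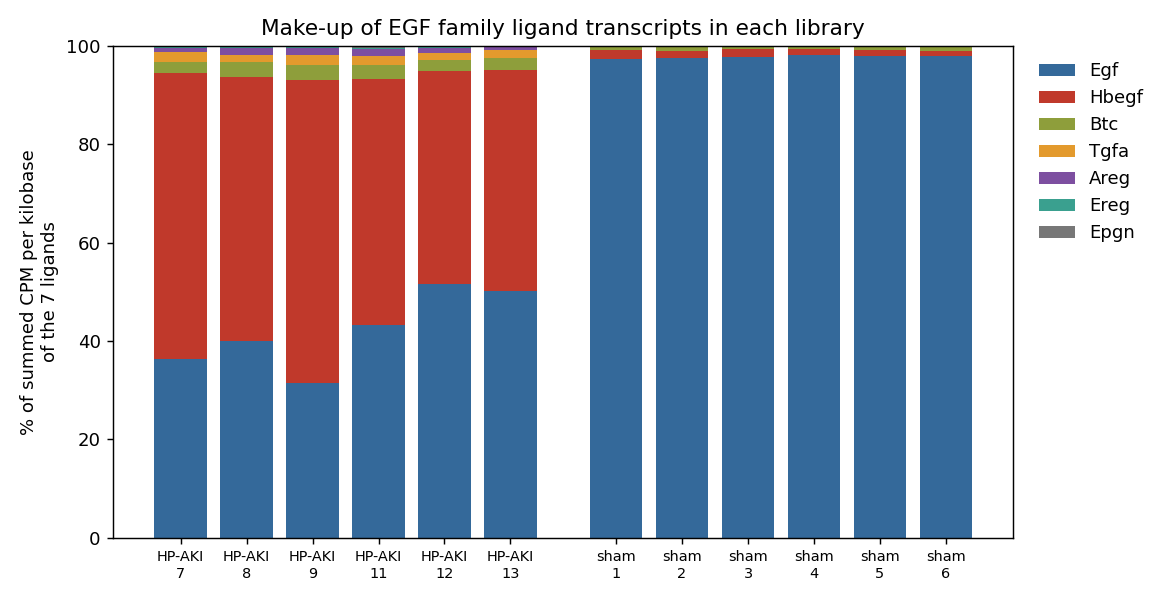
Stacked bars give, for each library, the percentage of the summed CPM per kilobase of the 7 ligands that each ligand forms, with HP-AKI libraries to the left of sham libraries. Egf forms 31.4 to 51.6% in HP-AKI and 97.4 to 98.2% in sham, and Hbegf forms most of the remainder in HP-AKI.

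Among the receptors, Egfr rose slightly, and Erbb2 and Erbb3 did not pass the threshold. Egfr (ENSMUSG00000020122), the receptor of all 7 ligands, lies on chromosome 11 from 16752203 to 16918158. It ranged from 111 to 139 CPM with a median of 117 CPM in HP-AKI, against 80.8 to 121 CPM with a median of 92.6 CPM in sham. The groups overlapped through sham 2, at 121 CPM, which lay above every HP-AKI library but HP-AKI 8, at 139 CPM. Egfr averaged 119 ± 10.2 CPM in HP-AKI and 96.8 ± 14.7 CPM in sham (SD, n = 6 each), a log2 fold change of 0.30 ± 0.0972 (SE, edgeR adjusted p = 0.0113). The call stood under all 21 alternative settings tried, with log2 fold changes of 0.23 to 0.43. The antisense gene Egfros, which overlaps Egfr, had 81 counts in HP-AKI and 39 in sham.

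Erbb2 (ENSMUSG00000062312), the receptor without a known soluble ligand, lies on chromosome 11 from 98412470 to 98437716. It ranged from 27.8 to 44.4 CPM with a median of 35.3 CPM in HP-AKI, against 27.95 to 55.1 CPM with a median of 49.9 CPM in sham. The sham libraries were split, with sham 2 at 27.95 and sham 1 at 33.9 CPM, inside the HP-AKI range, and the other 4 sham libraries at 48.3 to 55.1 CPM, above every HP-AKI library. The log2 fold change was -0.35 ± 0.166 (SE, edgeR adjusted p = 0.0708), which missed the threshold. It passed in 7 of 21 alternatives, among them leaving out sham 1 (-0.42, adjusted p = 0.0324), sham 2 (-0.46, adjusted p = 0.00808) or HP-AKI 13 (-0.44, adjusted p = 0.0357). Without sham 1, sham 2 and HP-AKI 8 together it was -0.54 (adjusted p = 2.36e-04). Because that fit drops the sham libraries with the lowest Erbb2 values, it is not a separate test of a fall.

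HP-AKI 8, sham 1 and sham 2, the 3 libraries at 1 end of the second principal component, held the lowest Erbb2 and the highest Egfr values of their groups. Egfr per Erbb2, both per kilobase, was 2.30 in HP-AKI 8 and 1.15 to 1.76 in the other HP-AKI libraries, against 1.99 in sham 2, 1.44 in sham 1 and 0.696 to 0.834 in the other sham libraries. What sets these 3 libraries apart was not tested, and the sources used here name no batch. Erbb2 shares 9 bases with Mien1 on the opposite strand, a gene with 11361 counts in HP-AKI and 20571 in sham.

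Erbb3 (ENSMUSG00000018166), the neuregulin receptor, lies on chromosome 10 from 128567523 to 128589652. It ranged from 99.9 to 181 CPM with a median of 115 CPM in HP-AKI, against 132 to 151 CPM with a median of 141 CPM in sham. In HP-AKI 12 it was the highest of all libraries, HP-AKI 13 lay within the sham range at 139.7 CPM, and the other 4 HP-AKI libraries lay under every sham library. The log2 fold change was -0.16 ± 0.122 (SE, edgeR adjusted p = 0.253). Without HP-AKI 12 it was -0.31 (adjusted p = 0.00534), so 1 library decided this call.

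Per kilobase, Erbb3 was the highest of the 3 receptors in both groups, at 21.1 ± 4.97 CPM per kilobase in HP-AKI and 23.6 ± 1.2 in sham (SD, n = 6 each). Egfr followed at 10.5 ± 0.905 in HP-AKI, with Erbb2 at 6.79 ± 1.2, and these ranges did not overlap. In sham Erbb2 had 8.64 ± 2.17 and Egfr 8.55 ± 1.29 CPM per kilobase, and their ranges overlapped. Of the 3 receptors' sum, Egfr formed 27.9 ± 4.49% in HP-AKI and 21.1 ± 3.94% in sham, Erbb2 17.7 ± 2.58% in HP-AKI and 21.1 ± 4.63% in sham, and Erbb3 54.4 ± 4.82% in HP-AKI and 57.8 ± 1.81% in sham. The receptors' sum was 38.4 ± 5.46 CPM per kilobase in HP-AKI and 40.7 ± 1.83 in sham, while Hbegf per Egfr stood at 3.73 to 5.45 in HP-AKI and 0.840 to 1.21 in sham.

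The fourth receptor, Erbb4, which binds neuregulins, Hbegf and Btc, fell to 26.01 ± 6.29 CPM in HP-AKI, against 46.5 ± 10.3 CPM in sham (SD, n = 6 each), a log2 fold change of -0.84 ± 0.166 (SE, edgeR adjusted p = 3.26e-04). Among its neuregulin ligands, Nrg1 rose to 22.3 ± 5.99 CPM in HP-AKI, against 4.72 ± 1.24 CPM in sham, a log2 fold change of 2.24 ± 0.194 (SE, edgeR adjusted p = 5.96e-08). Nrg4, which binds ERBB4, fell to 1.13 ± 0.497 CPM in HP-AKI, against 3.13 ± 0.50 CPM in sham, a log2 fold change of -1.46 ± 0.242 (SE, edgeR adjusted p = 6.17e-05). The groups did not overlap for Nrg1 or Nrg4 and overlapped for Erbb4. Nrg2 had 7 counts in HP-AKI and 17 in sham and was not tested, and Nrg3 had 0 counts, which at this depth allows up to 0.0136 CPM over the HP-AKI group and 0.0137 CPM over the sham group.

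**Figure D4:**
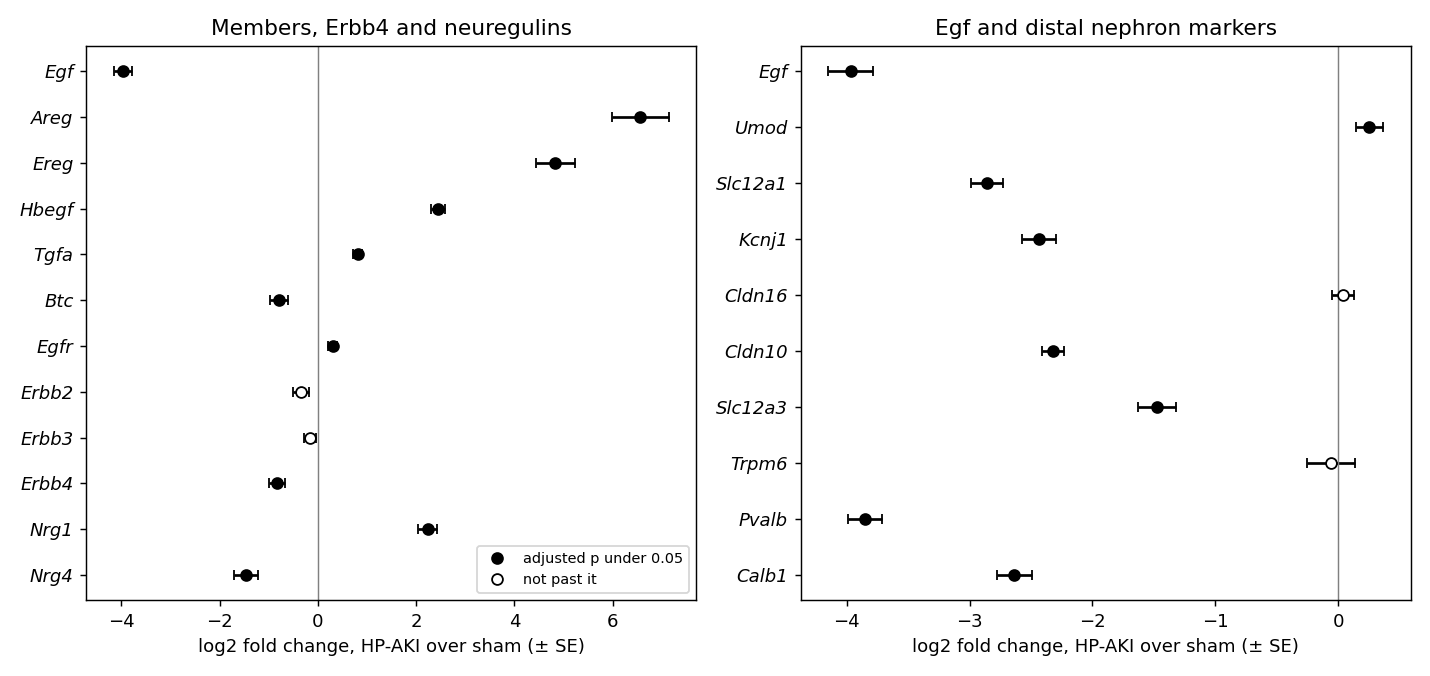
Points give the log2 fold change of HP-AKI over sham and bars its SE, for the 9 tested ligand and receptor genes with Erbb4, Nrg1 and Nrg4 on the left, and for Egf beside 9 markers of the thick ascending limb and distal convoluted tubule on the right; filled points passed an adjusted p of 0.05. Egf at -3.97 and Areg at 6.56 are the extremes on the left, and on the right Egf lies beside Pvalb at -3.85 while Umod, Cldn16 and Trpm6 lie near 0.

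Egf is a product of the thick ascending limb and the distal convoluted tubule, so it was set beside 9 markers of these segments. Of the 9, 6 fell, 1 rose and 2 did not pass the threshold, against 35.2% lower and 37.7% higher of all tested genes. Over so few genes the number called is close to the background of 72.8%. The median log2 fold change was -2.32 against 0.04 for all tested genes. These markers, like the other lists here, were chosen with earlier results of these data known. Slc12a1, the apical sodium, potassium and chloride cotransporter of the thick ascending limb, changed by -2.86 ± 0.129 (log2 fold change ± SE). Kcnj1, a potassium channel of that segment, changed by -2.44 ± 0.142 and Cldn10, a claudin gene, by -2.32 ± 0.0898. Of the distal convoluted tubule genes, the sodium chloride cotransporter Slc12a3 changed by -1.48 ± 0.154, the calcium-binding protein genes Calb1 by -2.64 ± 0.143 and Pvalb by -3.85 ± 0.138. The summed level of the 9 markers was 4591 to 6856 CPM in HP-AKI and 8147 to 8723 CPM in sham.

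The markers did not share the size of the Egf change. Umod, which encodes uromodulin of the thick ascending limb, had 4950 ± 744 CPM in HP-AKI and 4153 ± 407 CPM in sham (SD, n = 6 each), a log2 fold change of 0.25 ± 0.110 (SE, edgeR adjusted p = 0.0492). This call was lost in 14 of 21 alternatives, with log2 fold changes of 0.11 to 0.37, and without any of sham 1, 2, 3, 4 or 6 or HP-AKI 7, 8, 11 or 13. Cldn16, a thick ascending limb claudin, had a log2 fold change of 0.04 (adjusted p = 0.715) and Trpm6, the magnesium channel of the distal convoluted tubule, -0.06 (adjusted p = 0.792), values whose sign turned in 4 and 3 of the alternatives.

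Per unit of these markers Egf was lower too. The ratio of Egf to Umod CPM was 0.0265 to 0.0548 in HP-AKI and 0.597 to 0.775 in sham, and the ratio to Slc12a1 was 0.461 to 0.727 in HP-AKI and 1.14 to 1.42 in sham. Relative to 8 of the 9 markers, all HP-AKI libraries lay under all sham libraries. The exception was Pvalb, with ratios of 81.4 to 160.0 in HP-AKI and 119 to 139 in sham, which overlap. Proximal tubule markers fell in 7 of 7 cases, against 35.2% lower of all tested genes. Their summed level was 1816 to 3006 CPM in HP-AKI and 8973 to 11280 CPM in sham. The part of cell loss in these values was not tested.

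The list of sheddases, iRhoms and their regulators moved in both directions. Of its 11 genes 6 rose and 3 fell, against 37.7% higher and 35.2% lower of all tested genes. The median log2 fold change was 0.825 against 0.04 for all tested genes. Like the gene lists below, it was chosen with earlier results of these data known. Adam17, the main sheddase of Hbegf, Areg, Ereg, Epgn and Tgfa, had a log2 fold change of -0.24 ± 0.0914 (SE, edgeR adjusted p = 0.0297), a call lost without sham 2 (-0.18, adjusted p = 0.061), without HP-AKI 13 (-0.22, adjusted p = 0.0512) and in 2 other alternatives. Its transport partner Rhbdf2 rose to 24.1 ± 7.30 CPM in HP-AKI, against 4.43 ± 1.35 CPM in sham (SD, n = 6 each), by 2.44 ± 0.231 on the log2 scale (SE, adjusted p = 1.69e-07). Adam10, the main sheddase of Egf and Btc, had a log2 fold change of 0.03 (adjusted p = 0.818), with a sign that turned in 5 alternatives, and Adam12 had 0.11 (adjusted p = 0.435). The largest rise was that of Adam8, at 10.3 ± 2.19 CPM in HP-AKI and 1.02 ± 0.356 CPM in sham (log2 fold change 3.32 ± 0.241), and the largest fall that of Timp3, an inhibitor of ADAM17, at 2307 ± 390 CPM in HP-AKI and 3276 ± 529 CPM in sham (-0.51 ± 0.125).

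Of 15 genes listed as feedback inhibitors of ERBB receptors or the pathway under them, 12 rose and 1 fell. Of all tested genes 37.7% were higher and 35.2% lower, and the median log2 fold change of the list was 0.614. This list too was chosen with earlier results of these data known, so its excess is not independent of the values. Errfi1, which encodes the EGFR inhibitor MIG6 and was the highest of the list per kilobase, had 721 ± 108 CPM in HP-AKI and 501 ± 53.2 CPM in sham (SD, n = 6 each), a log2 fold change of 0.53 ± 0.103 (SE, edgeR adjusted p = 2.96e-04). The largest rise was that of Spry2, a Sprouty inhibitor, at 32.7 ± 3.25 CPM in HP-AKI and 11.7 ± 1.17 CPM in sham, and the 1 fall that of Socs5, by 0.47 on the log2 scale. Lrig3 had a log2 fold change of -0.25 (adjusted p = 0.066) and Socs4 0.27 (adjusted p = 0.0525), and they passed the threshold in 5 and 7 of 21 alternatives.

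Among 23 adaptor and RAS, ERK and PI3K pathway genes 12 rose, 3 fell and 8 did not pass, with a median log2 fold change of 0.317. Of all tested genes 37.7% were higher and 35.2% lower. The number called in either direction is no larger a share than the 72.8% of all tested genes. Gab2, a docking protein, showed the largest rise, 133 ± 9.54 CPM in HP-AKI and 36.9 ± 4.07 CPM in sham (SD, n = 6 each), a log2 fold change of 1.85 ± 0.0843. Pik3ca, the catalytic PI3K subunit, showed the largest fall, by 0.58 on the log2 scale.

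Of 14 genes known to respond to ERK signalling 12 rose, against 37.7% of all tested genes. Their median log2 fold change was 3.67, which stays the same with Fosl1 at its lower bound. The list was chosen with earlier results of these data known, so its excess over that share is not independent of the values. Fosl1, an AP-1 subunit gene, had 77.0 ± 12.1 CPM in HP-AKI (SD, n = 6) and no count in sham. Set against the level that 3 counts in the summed sham libraries would give, this is at least 5616-fold higher. Dusp5, a phosphatase of ERK, had 97.0 ± 10.6 CPM in HP-AKI and 1.12 ± 0.140 CPM in sham (SD, n = 6 each), a log2 fold change of 6.43 ± 0.117 (SE, edgeR adjusted p = 2.49e-14). Ier3, an early response gene and the highest of the list per kilobase, rose by 1.97 on the log2 scale. The 1 fall was that of Ccnd1, which encodes cyclin D1, at 55.8 ± 5.09 CPM in HP-AKI and 239.8 ± 42.2 CPM in sham, a log2 fold change of -2.104 ± 0.116. Etv5 had 0.01 (adjusted p = 0.958), with a sign that turned in 11 alternatives. Many signals besides EGFR act on these genes, and the part of the EGF family in their levels was not tested.

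**Figure D5:**
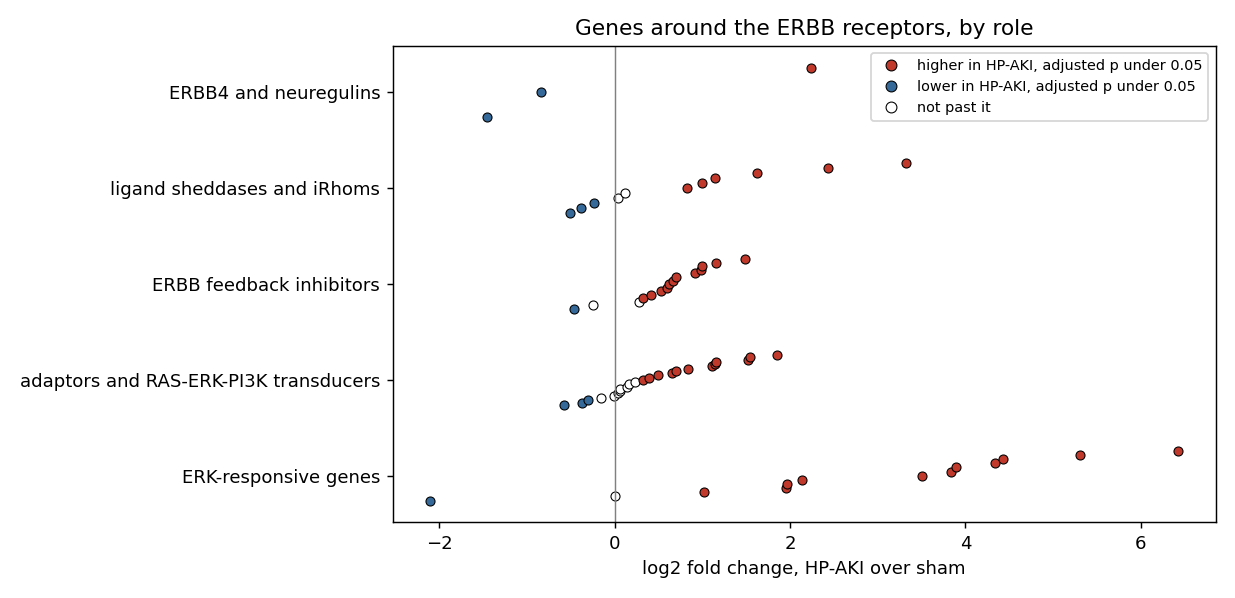
Each point is a tested gene of 1 of 5 lists, placed by its log2 fold change of HP-AKI over sham and coloured by whether it passed an adjusted p of 0.05; Fosl1, with 0 counts in sham, is not drawn. Of the genes tested, 12 of 15 listed as feedback inhibitors and 12 of 14 ERK-responsive genes, Fosl1 among them, were higher in HP-AKI, while Ccnd1 lies alone at -2.104. The lists were chosen with earlier results of these data known.

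The genes most like 3 of the members were found by the root mean square difference of centred log2 CPM over the 12 libraries, among 10857 protein-coding genes that averaged 5 CPM or more. For Egf these were Pvalb (0.252), B3gat2 (0.280), Fn3k (0.283), Kynu (0.295) and Gcnt1 (0.307), with log2 fold changes of -4.01 to -3.73. Pvalb, the nearest, is the distal convoluted tubule marker whose ratio to Egf overlapped between the groups. Its rank and that overlap rest on the same values. For Hbegf they were Tsc22d1 (0.140), F3, the tissue factor gene (0.147), Gnl3 (0.173), Btg3 (0.174) and Rell1 (0.176), with log2 fold changes of 2.20 to 2.53. For Egfr they were Klhl7 (0.0562), Rbpj (0.0565), Arcn1 (0.0565), Snrnp48 (0.0582) and Trim33 (0.0660), of which Trim33 did not pass the threshold (edgeR adjusted p = 0.0535). The measure takes in the difference between the groups as well as the spread within them.

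Leukocytes and other cells of the kidney can also make these ligands, so marker levels stand beside them. Of 5 neutrophil markers, 4 were tested and all 4 rose, against 37.7% higher of all tested genes. The summed level of the 5 was 17.6 CPM in HP-AKI 11 up to 143 CPM in HP-AKI 8, against 1.83 to 3.49 CPM in sham. None of the 5 was at 0 over either group. HP-AKI 8 also held the highest Hbegf, Areg, Ereg, Tgfa, Btc and Egfr of its group, and the highest Timp3 and Dcn. In the other HP-AKI libraries the order was mixed. HP-AKI 13, next in the neutrophil sum at 52.8 CPM, had the lowest Areg, at 0.553 CPM, and Hbegf at 97.3 CPM. HP-AKI 9, at 51.96 CPM in that sum, came next to HP-AKI 8 in Hbegf, at 115.5 CPM, and in Areg, at 1.37 CPM. HP-AKI 11, with the lowest sum, had the lowest Hbegf, at 93.1 CPM. Without HP-AKI 8 Hbegf, Areg and Ereg had log2 fold changes of 2.30, 6.32 and 4.66, against 2.45, 6.56 and 4.84 with it. Of 7 monocyte and macrophage markers 2 rose and 4 fell, against 37.7% higher and 35.2% lower of all tested genes. Their summed level was 88.2 to 133 CPM in HP-AKI and 102 to 139 CPM in sham, which overlap. The part of these cells in the ligand levels was not tested.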

How the data were processed

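Mouse kidney mRNA was deposited as 1 table of 43346 genes with a count and an RPKM column for each of 12 libraries. Per the labels, Trizol and a Qiagen kit gave the RNA and the TruSeq RNA v2 kit the libraries. TopHat2 2.1.0, featureCounts, edgeR and GRCm38 appear in the submitters' processing notes without roles or settings. The counts deposited by the authors are raw whole numbers per gene. The RPKM values deposited by the authors are scaled by the listed gene length in kilobases and by a library total that was 2.98 to 3.47 times the sum of the counts, and they served for an alternative only. No label gives a batch, and no pair of libraries was near-identical, with at least 8.87 as chi-square per gene.

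After filterByExpr and TMM scaling, the counts entered the quasi-likelihood F-test of edgeR 4.0.16 (with limma 3.58.1 under R 4.3.3), two-sided, Benjamini-Hochberg adjustment over 17470 genes and a threshold of 0.05. A log2 fold change over the square root of its F gave the SE, the median SE was 0.141, and the common biological coefficient of variation was 0.178. Levels between genes were compared as CPM per kilobase of the listed length. Counting intervals are exact binomial at 95% confidence. The steps were tested on simulated data with planted changes, 17324 genes tested. There edgeR recovered 28.4% of changes of 0.5, 97% of 1 and 100% of 2 on the log2 scale. Changes of 0.5 were thus mostly missed in the simulation. Of the 155 edgeR calls there 3.23% were unchanged genes. Far fewer genes changed there than were called in these data, so these shares do not carry over to them. Upstream sequences came from RefSeq on GRCm38.p6, and overlaps of genes from GENCODE vM21. Python 3.11.15, pandas 2.3.3, numpy 2.4.6, scipy 1.17.1 and matplotlib 3.10.9 were used.

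The ligand and receptor genes and the lists were chosen with earlier results of these data known. The lists were Erbb4 with the neuregulins, sheddases and iRhoms, feedback inhibitors, adaptors and transducers, ERK-responsive genes, and markers of the thick ascending limb with the distal convoluted tubule, the proximal tubule, the collecting duct, podocytes, endothelium, fibroblasts with pericytes, monocytes with macrophages, neutrophils, lymphocytes and red blood cells. The rule for named genes took the 10 ligand and receptor genes, Erbb4 and the neuregulins, from each other pathway list the largest called rise, the largest called fall and the highest level per kilobase, from each marker list the highest level in sham, and the 5 genes most like Egf, Hbegf and Egfr. Adam10, Adam12, Adam17, Rhbdf2, Lrig3, Socs4, Etv5, Dusp5 and S100a8 were named after their values were seen. So were the further distal nephron and collecting duct markers and the neighbours on chromosome 5. Alternatives were 3 other scalings, 2 other filters, DESeq2 1.42.0, limma-voom, limma on log2(RPKM + 0.1), leaving out each library in turn, and leaving out HP-AKI 8, sham 1 and sham 2 together, a set that an earlier analysis had placed apart. A gene that this rule names is not reported here.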

Additional observations from a re-analysis of the deposited data

Results flagged for a closer look

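Among 136 sets of 6 libraries checked for a library that stands apart, 16 had one. Chance flags about 1 in 20 independent sets, but these sets are not independent, since some genes were chosen for a profile like that of Hbegf or Egfr. The gap of the outermost library to its nearest neighbour exceeded 0.625 of the range in each. In 11 of them it was HP-AKI 8, and always at the high end. For the ligands and receptors it held Hbegf at 159 CPM with the next HP-AKI library at 115 CPM, Btc at 10.8 CPM with the next at 7.04 CPM, and Egfr at 139 CPM with the next at 119 CPM. Erbb4 followed at 38.0 CPM, the highest of its group. In the same library the sheddase Adam17 stood at 54.8 CPM, its inhibitor Timp3 at 3080 CPM, the neutrophil gene S100a8 at 55.5 CPM with the next at 18.3 CPM, and the fibroblast gene Dcn at 181 CPM. Of the genes most like Hbegf or Egfr, which repeat their profile by choice, Rell1 stood at 168 CPM, Rbpj at 71.5 CPM and Trim33 at 90.7 CPM in HP-AKI 8.

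Nrg1 stood apart in HP-AKI 12, at 33.7 CPM with the next library at 22.7 CPM. That library also held the highest Erbb3, the receptor of its product. In sham, the EGFR inhibitor gene Errfi1 stood apart in sham 1 at 608 CPM, Adam17 in sham 2 at 63.7 CPM, B3gat2 in sham 2 at 62.2 CPM, and the hemoglobin gene Hbb-bs in sham 5 at 514 CPM with the next library at 137 CPM. What sets these libraries apart was not tested.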

How the results depend on the processing

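Under 21 alternatives the calls of Egf, Hbegf, Tgfa, Btc and Egfr kept direction and side of the threshold, with log2 fold changes of -4.11 to -3.85 for Egf and 2.30 to 2.57 for Hbegf. So did those of Areg and Ereg in the 20 alternatives that tested them, where log2(RPKM + 0.1) gave 1.97 and 0.87, since its pseudocount exceeds all their sham values and 4 of 6 HP-AKI values of Ereg. The number of the 10 genes called was 5 to 9. The 5 arose where a filter of 1 CPM removed Areg and Ereg, and the 9 without a filter on low counts. Over all genes 11163 to 14633 were called. These ends were 11163 of 14905 tested genes with the filter of 1 CPM and 14633 of 29324 without a filter. Without division by length Egf formed 57.1% of the ligands in HP-AKI and 98.6% in sham, Egfr 42.8% and 34.2% of the receptors, Erbb2 12.6% and 15.9%, and Erbb3 44.6% and 50%, which follows from the lengths. Values near 0 turned sign: Adam10 to -0.013 with upper quartile scaling, with -0.074 to 0.10 over the fits without 1 library, Cldn16 to -0.013 with upper quartile scaling (-0.0065 to 0.058 without 1 library), Trpm6 to 0.060 by library size (-0.30 to 0.027 without 1 library), and Hbb-bs without sham 5 (-0.74 to 0.34 without 1 library). Etv5 turned to -0.0123 (RLE), -0.048 (upper quartile), -0.033 (no filter), -0.0126 (DESeq2), -0.0010 (limma-voom) and -0.10 without HP-AKI 8, sham 1 and sham 2 (-0.084 to 0.049 without 1 library). The cause was not tested. No paired analysis was possible because the groups share no sample numbers. Areg, Ereg and Epgn are limited by depth, at 2, 8 and 10 counts over the sham group, and the labels do not say whether libraries were separate animals.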

Other observations

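Chemokine genes lie on the other side of Mthfd2l from Epgn on chromosome 5, and several were higher in HP-AKI. Cxcl1, a neutrophil attractant, had 2833 counts in HP-AKI and 129 in sham, a log2 fold change of 4.45 (edgeR adjusted p = 5.96e-10), and Cxcl2 had 1388 counts in HP-AKI and 17 in sham, a log2 fold change of 6.29 (adjusted p = 3.75e-09). Pf4 and Ppbp, known from platelets, changed by 1.88 (adjusted p = 1.07e-05) and 0.96 (adjusted p = 0.0305). Cxcl5 had 135 counts in HP-AKI and 8 in sham and Cxcl3 had 73 in HP-AKI and 6 in sham, both under the filter on low counts. These neighbours were named after their values were seen.

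Markers of other kidney cells moved in both directions. Of all tested genes 37.7% were called higher and 35.2% lower, so counts over lists this short set no cell type apart by themselves. Of 5 collecting duct markers 3 fell, with a list median log2 fold change of -0.388. Atp6v1b1, a proton pump subunit of intercalated cells, stood at 25.5 ± 7.08 CPM in HP-AKI and 115 ± 15.0 CPM in sham (SD, n = 6 each). Slc4a1 changed by -5.17 and Aqp3 by -0.39 on the log2 scale, and Aqp2 (0.17) and Scnn1b (0.13) did not pass the threshold. Of 5 podocyte markers 4 rose and 1 fell, with Podxl at 452 ± 53.8 CPM in HP-AKI and 331 ± 29.6 CPM in sham. Of 5 endothelial markers 3 rose and 1 fell, and of 5 fibroblast and pericyte markers 3 rose, among them Dcn, whose call was lost in 14 of 21 alternatives. All 4 tested lymphocyte markers of 6 fell, with summed levels of 0.830 to 1.42 CPM in HP-AKI and 5.29 to 6.97 CPM in sham. None of 5 red blood cell markers passed the threshold, with summed levels of 137 to 352 CPM in HP-AKI and 102 to 1001 CPM in sham.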
